A study of Mus musculus with 32 samples.

Results

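The X chromosome of the mouse carries 8 genes described here that act in chromatin or general transcription: Suv39h1, Atrx, Phf6, Hcfc1, Ogt, Med12, Taf1 and Taf9b. They were chosen by name and not by any measured value, and all 8 were listed in each of the 4 deposited tables, among 1006 genes listed in any table. All samples are XEN cells, which grow from the extraembryonic endoderm of the early embryo, with the strain 129S1/SvImj X JF1/Ms. Because the parental genomes differ in sequence, RNA of the active X (Xa) could be counted apart from RNA of the inactive X (Xi). The 32 RNA samples fall into 12 groups.

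One table holds WT (3 samples), XistpA (4 samples), XRR KO (2 samples, each from its own clone) and XRRa KO (3 samples). The second holds XRRb XaKO, XRRb XiKO, XRRc XaKO and XRRc XiKO, with 2 samples each. A further table holds Rad21-degron cells given DMSO or dTAG, with 4 samples each from 2 clones. The last holds Ctcf-degron cells given DMSO or dTAG for 48 h, with 2 samples each. A degron is a tag that lets a small molecule, here dTAG, trigger destruction of the tagged protein. The Rad21 and Ctcf controls therefore carry the tag as well. The labels do not describe the XistpA, XRR, XRRa, XRRb or XRRc alleles, and XaKO and XiKO are used here as the labels give them. Autosomal endoderm markers were not analysed here, so the cell type was not checked against them. Of 3 X-linked trophoblast markers (Plac1, Esx1 and Cdx4), Cdx4 was at 0 throughout, and their summed level on both alleles ran from 0.306 to 5.41 FPKM, highest in XRRa KO. The pluripotent-cell markers Eras and Nr0b1 were each above 0 in 1 group, Eras at 0.239 FPKM with Rad21 DMSO and Nr0b1 at 0.00875 FPKM in XRR KO. The part of such cells in the results was not tested. The values are RNA levels, which do not measure protein, so loss of the tagged proteins was not checked. Rad21 and Ctcf are also not X-linked.

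For each gene, a group's samples had been merged into a single FPKM value on each allele. FPKM is a fragment count scaled by transcript length and library size. The values therefore come without a spread over samples, without a replicate check and without p-values, and their depth is unknown. In bulk RNA, fewer expressing cells and less RNA per cell cannot be told apart. A change is the difference of log2(FPKM + 0.5), and only a change of 1 or more is called a rise or a fall. That scale understates changes of low genes, and from a listed 0 a value must reach 0.5 FPKM to pass. Genes counted as tested if the 2 alleles together averaged at least 1 FPKM across the groups in a table; tested here means only that the size rule was applied. This kept 8 of the 8 regulators among 270 genes in the WT table, 7 among 261 in the XRRb and XRRc table, 6 among 247 in the Rad21 table and 7 among 277 in the Ctcf table. Med12 missed the filter in the XRRb and XRRc table, Phf6 and Med12 in the Rad21 table, and Phf6 in the Ctcf table.

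The 8 proteins work at different steps between chromatin and the transcription machinery. SUV39H1 methylates histone H3 at lysine 9 and so marks constitutive heterochromatin. ATRX is a chromatin remodeller that deposits histone H3.3 with its partner DAXX at heterochromatin and telomeres. PHF6 is a zinc finger protein of the nucleus and nucleolus that binds the NuRD remodelling complex. OGT adds N-acetylglucosamine to serines and threonines of nuclear proteins and also cleaves HCFC1, a host cell factor that links transcription factors to histone-modifying complexes. MED12 belongs to the kinase module of Mediator. TAF1 is the scaffold subunit of TFIID, which binds core promoters, and TAF9B is a close relative of the TFIID subunit TAF9. On most of the X chromosome in female cells 1 allele is silenced by Xist RNA, and genes that stay active on Xi are called escape genes.

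RefSeq promoter windows of GRCm38.p6, from 250 bases before to 50 after the start, were found for 7 of the 8 genes and are shown for Taf9b and Hcfc1, whose Xa level changed past the size rule. The authors' tables are on mm9, another build, so these windows give sequence context and were not joined to the data by position. Capitals mark the word AANATGGC, the core of the element bound by the factor YY1, read on both strands.
Taf9b, chrX:106221109-106221408, minus strand: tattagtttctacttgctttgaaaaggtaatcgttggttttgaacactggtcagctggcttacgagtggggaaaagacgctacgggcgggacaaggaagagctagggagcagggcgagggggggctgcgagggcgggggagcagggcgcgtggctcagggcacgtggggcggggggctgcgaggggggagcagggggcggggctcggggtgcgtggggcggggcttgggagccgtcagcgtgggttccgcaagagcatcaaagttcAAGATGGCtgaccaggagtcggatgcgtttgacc
Hcfc1, chrX:73966308-73966607, minus strand: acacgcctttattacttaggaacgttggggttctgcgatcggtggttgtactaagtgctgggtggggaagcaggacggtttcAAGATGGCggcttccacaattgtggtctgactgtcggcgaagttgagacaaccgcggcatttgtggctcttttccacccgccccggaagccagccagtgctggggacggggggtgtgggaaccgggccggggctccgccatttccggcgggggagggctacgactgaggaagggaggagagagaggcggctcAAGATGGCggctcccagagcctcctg

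In these windows Taf9b held the word once, 16 bases after the start, and Hcfc1 held it 24 bases after and, on the upstream side, at position -168. Counting every listed start, 4 of the 7 genes held it (Suv39h1, Atrx, Hcfc1 and Taf9b), against 15.9% of tested X-linked genes with a window and 6.96% of all genes. The word was chosen after the sequences were read. The ETS-type word CCGGAAG occurred in Hcfc1 and Taf1 (15.9% of tested X-linked genes), the NRF1-type word GCATGCGC in Ogt (7.05%), and the TATA box word TATAAA in none (12.3%). No match of these 3 words overlapped one of the YY1-type word, and all were searched on both strands. The 10 windows of the 7 genes held 11 to 37 CpG dinucleotides, against a median of 7 over all promoters and 16 over those of tested X-linked genes. Each match is a description of sequence and not evidence of binding.

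On Xa the genes formed a higher and a lower set. In WT cells Ogt stood at 13.7 FPKM, Suv39h1 at 12.3, Atrx at 7.70 and Hcfc1 at 7.33. Taf9b followed at 3.72, Phf6 at 2.58, Taf1 at 2.57 and Med12 at 1.15 FPKM. Among the 270 tested genes of the WT column these levels ran from the 5.56th percentile (Med12) to the 63.7th (Ogt). The same 4 genes (Ogt, Suv39h1, Atrx and Hcfc1) held the 4 highest places in all 12 groups. Suv39h1 was the highest of the 8 in 10 groups and Ogt in the other 2 (WT and XRR KO). No error is available for these orders, and in WT Phf6 and Taf1 were nearly equal.

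**Figure D1:**
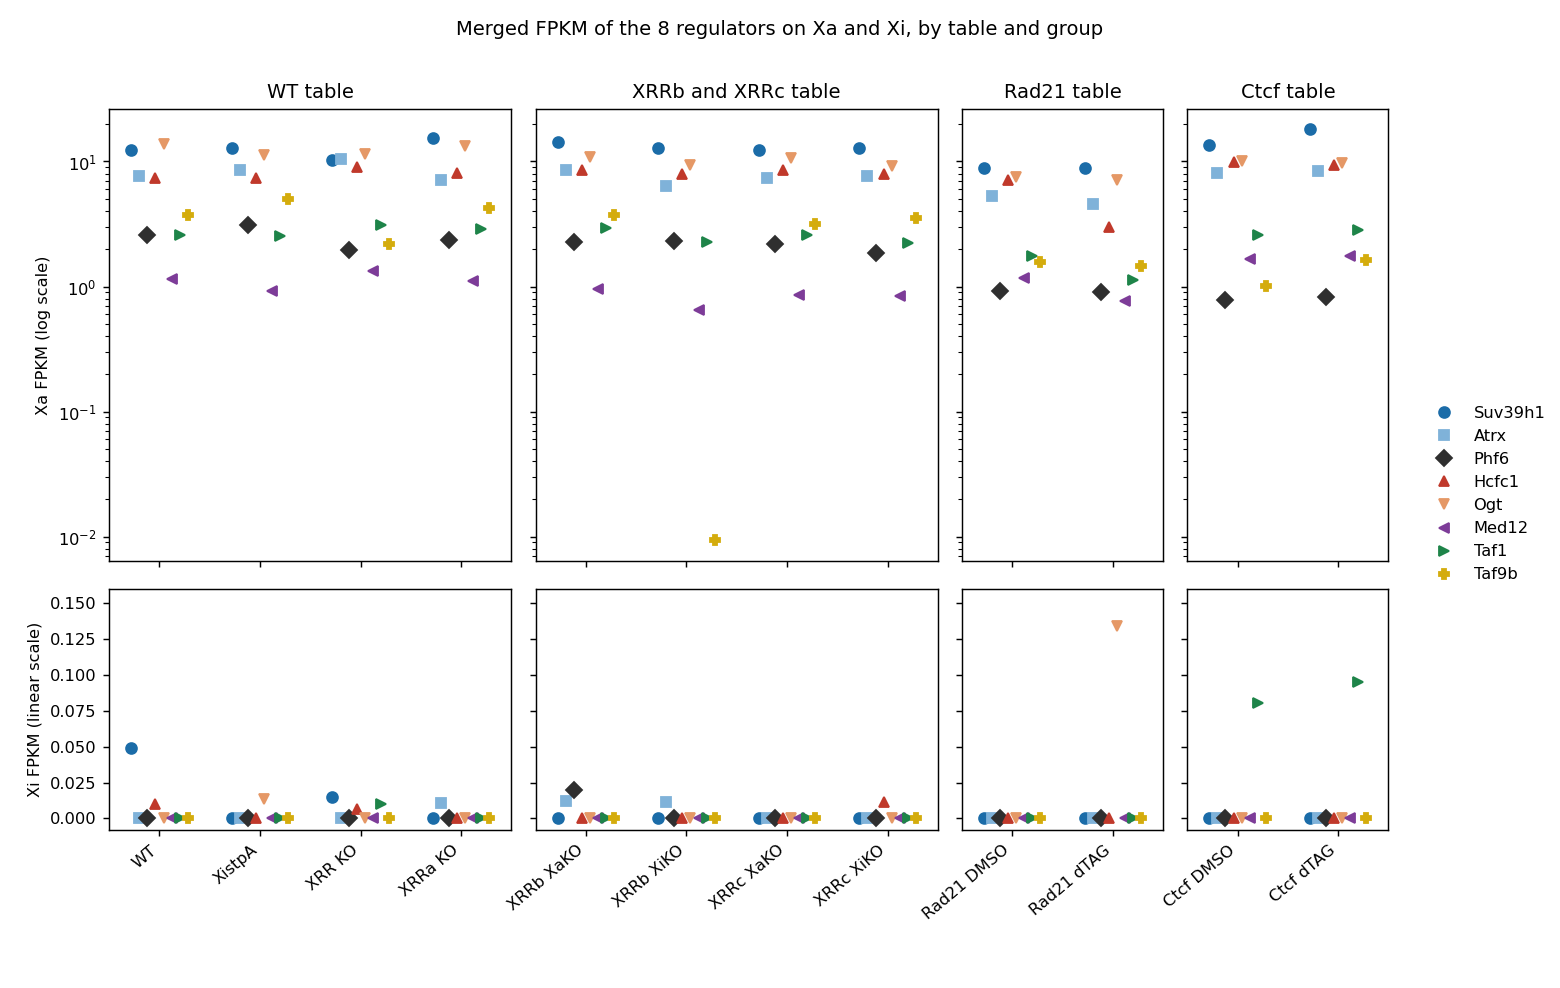
Merged FPKM of the 8 genes on Xa (upper row, log scale) and Xi (lower row, linear scale) in the 12 groups, with 1 panel per table and small sideways offsets for legibility. Taf9b in XRRb XiKO is the point near 0.01 FPKM on Xa, and no Xi value exceeds 0.134 FPKM.

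On Xi all 8 genes were at or near 0 in every group. Of 96 Xi values (8 genes in 12 groups), 82 were listed at 0 and 14 lay between 0.00644 and 0.134 FPKM. A listed 0 can also be a failed estimate, so it is not read as proof of no RNA. The highest Xi share of Xa plus Xi FPKM was 3.23%, and 3 of the 96 shares reached 1%. By comparison Kdm5c, a histone H3 lysine 4 demethylase and known escape gene, had less Xa RNA in WT than Taf1 (2.17 FPKM) and yet 0.763 FPKM on Xi, a share of 26%.

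Among the heterochromatin genes, Suv39h1 was listed on Xi at 0.0493 FPKM in WT and 0.0147 FPKM in XRR KO and at 0 in the other 10 groups. Its share was 0.398% at most. An antisense gene, Gm14820, overlaps 14.6% of the Suv39h1 exon bases in GENCODE M21, and the libraries kept no strand, so RNA of both is counted together there. Atrx stood on Xi at 0.0104 FPKM in XRRa KO, 0.0123 in XRRb XaKO and 0.0116 in XRRb XiKO, and at 0 in the other 9. Phf6 had a single Xi value above 0, 0.0195 FPKM in XRRb XaKO.

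Of the OGT and HCFC1 pair, Hcfc1 was listed on Xi at 0.0100 FPKM in WT, 0.00644 in XRR KO and 0.0116 in XRRc XiKO. Ogt was at 0.0138 FPKM in XistpA and 0.134 FPKM with Rad21 dTAG, the latter a share of 1.85%. Ogt was listed at 0 on Xi with Rad21 DMSO.

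In the transcription machinery, Med12 and Taf9b were listed at 0 on Xi in all 12 groups. A processed transcript, Gm21986, overlaps 9.72% of the Med12 exon bases. Taf1 was at 0.0102 FPKM in XRR KO, 0.0801 with Ctcf DMSO and 0.0952 with Ctcf dTAG. Its 2 Ctcf values were shares of 2.99% and 3.23%, and Taf1 was at 0 in both Rad21 columns.

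Set against the other tested genes, 0 of the tested regulators had an Xi share of 10% or more in any group. The share of all tested genes at or above 10% was 12.2% in WT, 20.4% in XistpA, 21.5% in XRR KO and 15.9% in XRRa KO. It was 13.4% in XRRb XaKO, 14.2% in XRRb XiKO, 11.5% in XRRc XaKO and 12.3% in XRRc XiKO. In the degron cells it was 13.4% with Rad21 DMSO, 15.0% with Rad21 dTAG, 13.4% with Ctcf DMSO and 13.0% with Ctcf dTAG. Most tested genes lie below 10% as well, so a count of 0 does not set the regulators apart in any column. The columns repeat the same genes and do not add up as separate evidence. Shares below 5% were found for 86.3% of tested genes in WT and 74.4% in XRR KO, where all 8 regulators were also below 5%.

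**Figure D2:**
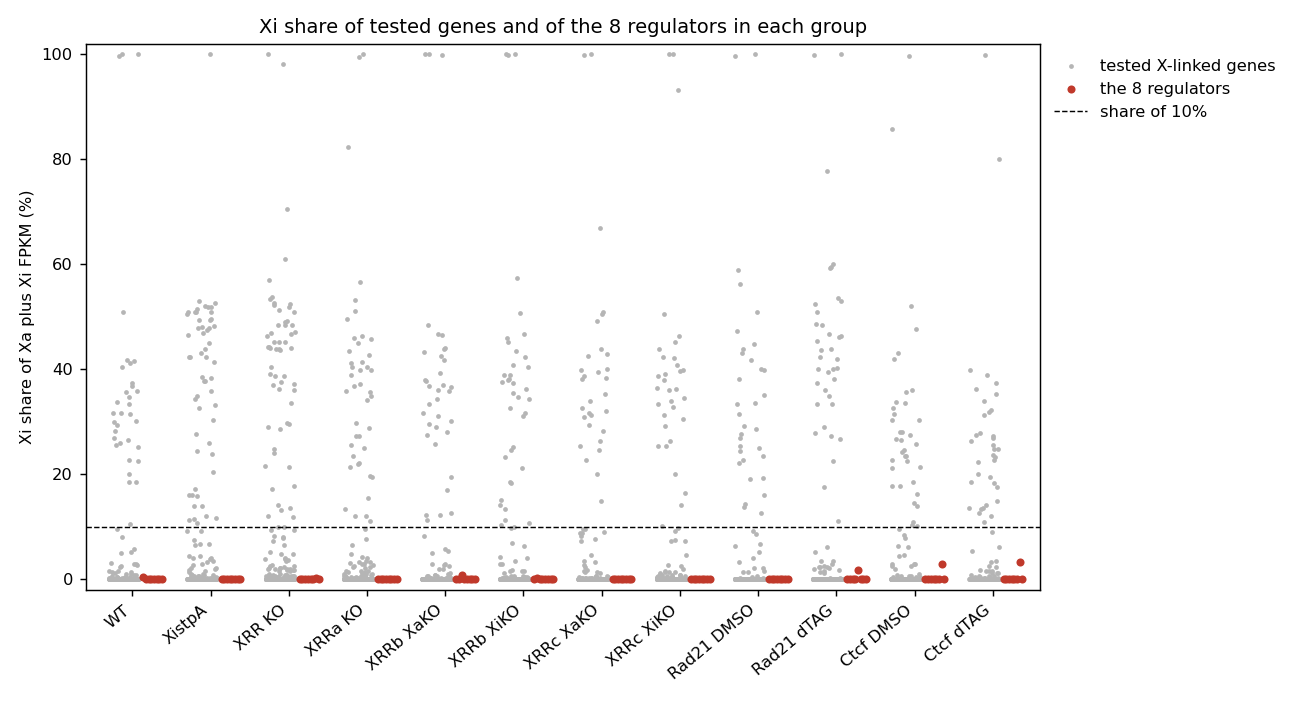
Xi share of Xa plus Xi FPKM, in percent, for all tested X-linked genes with any FPKM (grey) and for the 8 regulators (red) in each of the 12 groups; sideways spread is for legibility and the dashed line marks 10%. All red points lie at or below 3.23%, while grey points above 10% occur in every group.

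XistpA and XRR KO are the groups in which Xist RNA from Xi was lowest. The summed Xi level of the 8 genes was not higher there than in WT. Xist stood on Xi at 15.5 FPKM in WT, 0 in XistpA, 1.18 in XRR KO and 7.86 in XRRa KO. Its antisense gene Tsix was listed on Xi at 31.2 FPKM in WT, 0 in XistpA and XRR KO and 16.5 in XRRa KO. The libraries kept no strand, so RNA of Xist and Tsix cannot be told apart where they overlap. Summed over the 8 genes, Xi FPKM was 0.0594 in WT, 0.0138 in XistpA, 0.0313 in XRR KO and 0.0104 in XRRa KO, beside summed Xa levels of 51.1, 51.5, 49.9 and 54.5 FPKM. On Xi 0 of 8 genes passed the size rule in XistpA, where 13.7% of the tested genes did. The count was also 0 of 8 in XRR KO (17.0% of tested genes) and in XRRa KO (7.04%). The 3 comparisons share the WT column. Because a value listed at 0 must reach 0.5 FPKM to pass, these counts say little for genes low on Xa. Atp7a, for one, went on Xi from 0 in WT to 0.466 FPKM in XRR KO without passing.

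Immediate neighbours on the chromosome behaved otherwise in places. In the RefSeq gene order Ogt is followed by Ercc6l, a helicase of mitotic chromosomes, among the tested genes. Ercc6l had an Xi share of 26.6% in WT, 43.9% in XistpA, 44.0% in XRR KO and 35.8% in XRRa KO, while Ogt stayed at or below 0.123% in those columns. Beyond it Cited1, a transcriptional coregulator, went from 4.95% in WT to 47.9% in XistpA and 45.3% in XRR KO. Closer to Xist, Phka1 and Nap1l2 had no Xi value above 0 in the WT table, and Chic1 had a share of 0.532% at most. On the other side of Ogt, the tested genes Taf1, Nono, Zmym3, Med12 and Snx12 had shares of 0.330% or less in all 4 columns. Between Med12 and Xist lie 11 tested genes, between Taf1 and Xist 8 and between Ogt and Xist 7. These neighbours beyond the nearest were chosen after their values were seen.

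On the far side of Xist, Atrx and Taf9b flank 4 tested genes, Magt1, Cox7b, Atp7a and Pgk1. Magt1, next to Atrx, was as low on Xi as the regulators, with a share of 0% in WT and 0.423% at most, in XRR KO. Cox7b, a subunit of respiratory complex IV, went on Xi from 0.0293 FPKM in WT to 15.4 in XistpA and 11.8 in XRR KO. The copper transporter gene Atp7a was listed at 0 on Xi in WT and reached shares of 12.1% and 17.3%. Pgk1, a glycolytic enzyme gene next to Taf9b, went from 0.352 FPKM on Xi in WT to 37.1 in XistpA and 2.05 in XRR KO, and was listed at 0 in XRRa KO. It has a near-identical copy elsewhere in the genome, so its value is uncertain. Atrx and Taf9b were themselves listed at 0 on Xi in WT, XistpA and XRR KO. Pbdc1, the tested gene before Atrx, was at 18.6% in WT.

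Around the other 3 genes the nearest tested neighbours had Xi shares of 4.07% or less in the WT table. Hdac6 before Suv39h1 was at 0 on Xi in WT, XistpA and XRR KO, and Wdr13 after it reached 2.35% in XRR KO. Beside Phf6, Gpc3 had no Xi value above 0 in these 4 groups and Hprt reached 0.134% in XRRa KO. Beside Hcfc1, Renbp reached 3.25% in XistpA and Irak1 went from 1.36% in WT to 4.07% in XRRa KO.

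**Figure D3:**
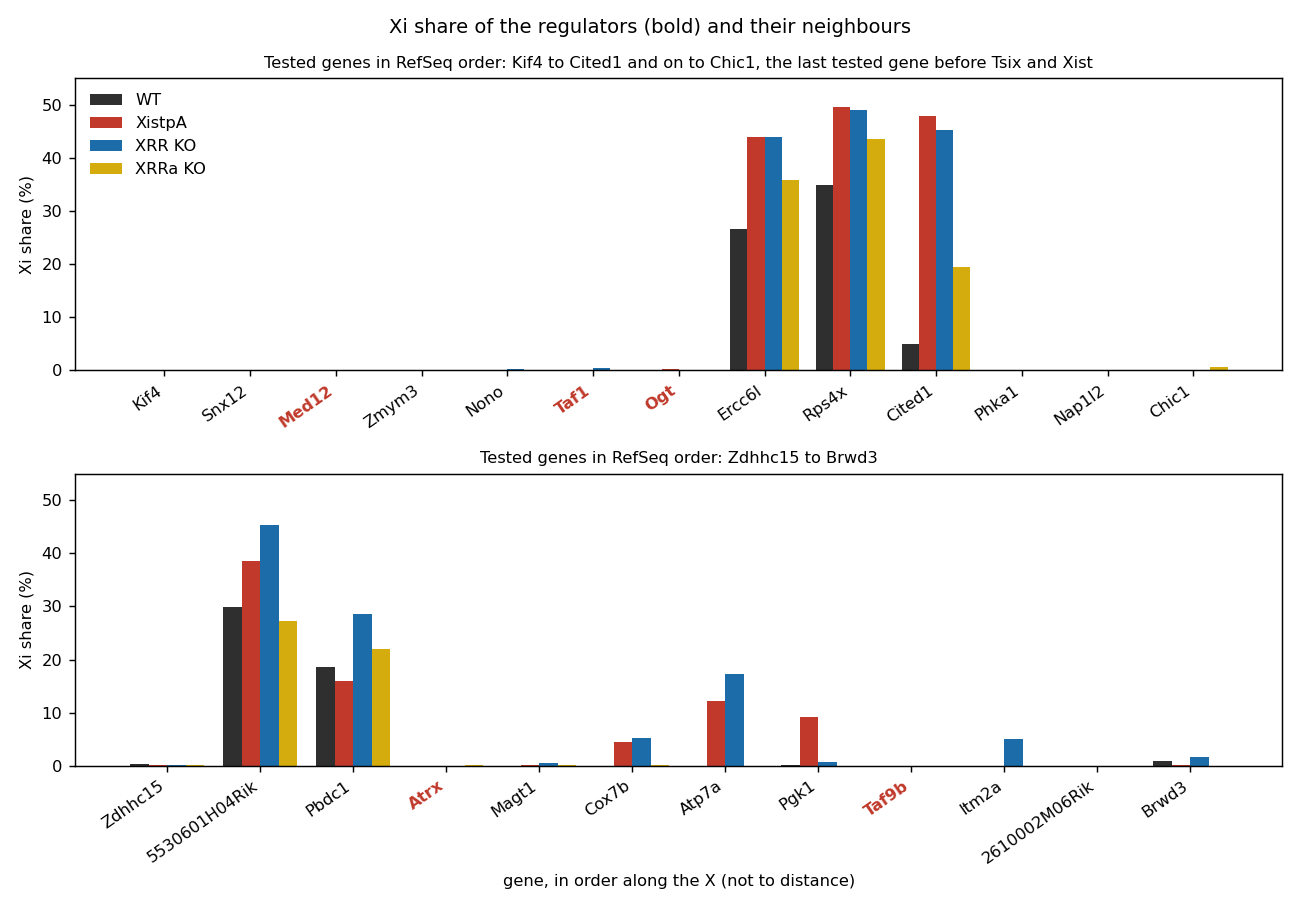
Xi share in percent of tested genes in their RefSeq order around Med12, Taf1 and Ogt (upper panel) and around Atrx and Taf9b (lower panel) in WT, XistpA, XRR KO and XRRa KO; spacing is not to distance, Tsix and Xist are left out, and Rps4x, Nono and Pgk1 have near-identical copies elsewhere. The bars of the 5 regulators are at or below 0.330%, beside Ercc6l at 26.6% to 44.0%.

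On Xa the same 3 comparisons left all 8 genes within the size rule. In XistpA against WT the Xa changes ran from -0.27 (Ogt, 13.7 to 11.3 FPKM) to 0.38 (Taf9b, 3.72 to 5.01 FPKM), with a median of 0.03 beside -0.02 over all tested genes, and 4.44% of tested genes passed. In XRR KO they ran from -0.64 (Taf9b, to 2.20 FPKM) to 0.42 (Atrx, 7.70 to 10.5 FPKM), with a median of -0.05 beside -0.19, and 4.81% passed. In XRRa KO they ran from -0.11 (Atrx) to 0.32 (Suv39h1, 12.3 to 15.5 FPKM), with a median of 0.05 beside 0.02, and 0.741% passed. Taf9b was thus at 5.01 FPKM in XistpA and 2.20 FPKM in XRR KO, with WT and XRRa KO (4.28) between them.

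The XRRb groups held the largest Xa change of the 8 genes. Taf9b stood on Xa at 3.73 FPKM in XRRb XaKO and 0.00934 FPKM in XRRb XiKO, a log2 change of -3.05, and it fell more than any other of the 261 tested genes at pseudocounts of 0.5 and 0.1 (-5.13 at the latter). At a pseudocount of 1 its change was -2.23 and that of Itm2a, its neighbour, was -2.35. In XRRc XaKO and XRRc XiKO it stood at 3.16 and 3.52 FPKM (0.14). XRRb XiKO was thus the only one of the 4 columns with almost no Taf9b RNA, and no Taf9b was listed on Xi there, so the sum over both alleles was as low. Between XRRb XaKO and XRRb XiKO its level went from the 29.9th to the 1.15th percentile of tested genes.

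The genes beside Taf9b did not share one change in XRRb XiKO. Pgk1, before it, was at 446 FPKM on Xa in XaKO and 380 in XiKO (-0.23), and Atp7a was at 2.01 and 1.33 FPKM (-0.46). Itm2a, after it, fell from 7.14 to 0.592 FPKM (-2.81). Yet Itm2a was at 0.206 FPKM in XRRc XaKO and 2.37 in XRRc XiKO (2.02), so it varied across these groups in both directions. The gene after that, 2610002M06Rik, was at 3.17 and 3.16 FPKM. Further on, 2810403D21Rik fell from 1.93 to 0.614 FPKM (-1.12) while Brwd3 went from 3.37 to 2.48 (-0.38). These genes beyond the nearest were chosen after their values were seen. Each XRRb group merges 2 samples, and the Taf9b level of each sample cannot be told apart.

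The other 6 tested regulators ran from -0.39 (Atrx, 8.47 to 6.36 FPKM) to 0.02 (Phf6, 2.27 to 2.31 FPKM) on Xa in XRRb. With Taf9b, 1 of 7 passed the size rule, against 3.07% of tested genes. In XRRc 0 of 7 passed on Xa (2.30% of tested genes), between -0.19 (Phf6, 2.19 to 1.85 FPKM) and 0.14 (Taf9b). On Xi 0 of 7 passed in XRRb (1.92%) and 0 of 7 in XRRc (2.30%). As a measure of how far columns of this table differ, XRRb XaKO against XRRc XaKO gave Xa changes of -0.01 (Hcfc1) to 0.21 (Suv39h1) for the same genes. These groups differ in allele by their labels, and no clone is named, so allele and line cannot be told apart. In that comparison 5 of 261 tested genes passed the size rule, and Itm2a differed by 3.44. On the main scale this is larger in size than the Taf9b change within XRRb (-3.05), but that scale understates changes of low genes. At a pseudocount of 0.1 the Taf9b change was -5.13. The Itm2a difference between XRRb XaKO and XRRc XaKO was not computed at that setting, so Itm2a and Taf9b are not ranked here. Med12, not tested in this table, was at 0.950, 0.650, 0.858 and 0.833 FPKM on Xa in XRRb XaKO, XRRb XiKO, XRRc XaKO and XRRc XiKO.

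**Figure D4:**
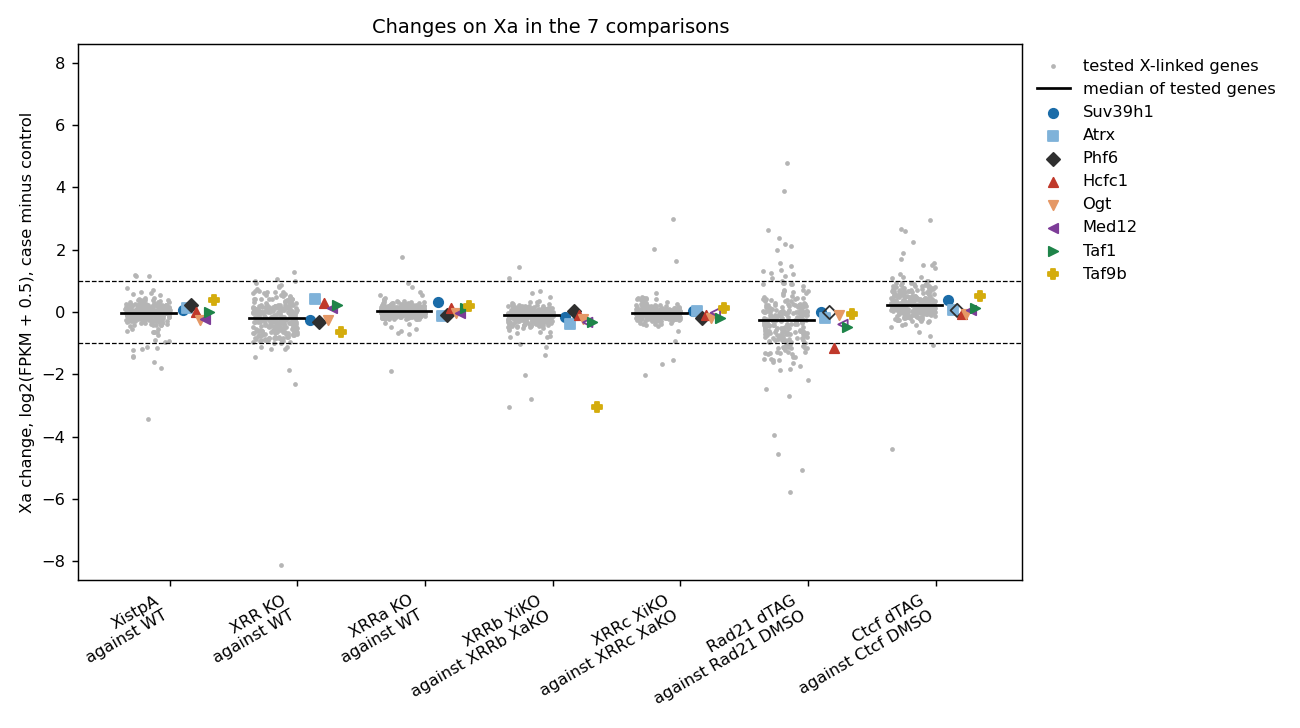
Change on Xa as a difference of log2(FPKM + 0.5), case minus control, in the 7 comparisons, for all tested genes (grey, black bar at their median) and the 8 regulators (coloured; open symbols were not tested); dashed lines mark the size rule of 1. Taf9b at -3.05 in XRRb and Hcfc1 at -1.15 with Rad21 dTAG are the 2 coloured points beyond the lines.

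In cells with the degron on Rad21, a cohesin subunit, Hcfc1 fell on Xa with dTAG. Hcfc1 was at 7.18 FPKM with DMSO and 2.97 FPKM with dTAG (-1.15), from the 53.0th to the 38.9th percentile of tested genes. It was 1 of 6 tested regulators past the size rule, where 21.5% of all tested genes were, and the median Xa change of those genes was -0.26. Centred on that median the Hcfc1 change was -0.89, and with columns scaled to equal median Xa FPKM it was -0.77, both short of the size rule.

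Taf1 went from 1.77 to 1.14 FPKM (-0.47) and Atrx from 5.33 to 4.57 FPKM (-0.20) in the same comparison. Suv39h1 was at 8.82 and 8.86 FPKM (0.01), Ogt at 7.57 and 7.09 (-0.09) and Taf9b at 1.56 and 1.46 (-0.08). With columns scaled to equal median Xa FPKM, the signs of Atrx (0.17), Ogt (0.30) and Taf9b (0.23) turned and Taf1 was at -0.17. Med12 (1.17 and 0.768 FPKM) and Phf6 (0.913 and 0.897 FPKM) were not tested. On Xi 0 of 6 passed (7.29% of tested genes). The Ogt change there was 0.34 and passed the size rule only with a pseudocount of 0.1, where it was 1.23. Xist RNA of Xi stood at 28.0 FPKM under DMSO and at 35.6 FPKM under dTAG.

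With Ctcf dTAG 0 of 7 tested regulators passed on Xa, against 6.14% of tested genes, and 0 of 7 on Xi, against 0.722%. Suv39h1 was at 13.6 FPKM with DMSO and 18.1 with dTAG (0.40), and Taf9b at 1.01 and 1.64 FPKM (0.50). Hcfc1 was at 9.96 and 9.43 FPKM (-0.07), Ogt at 10.1 and 9.73 (-0.05) and Atrx at 8.07 and 8.36 (0.05). Taf1 was at 2.60 and 2.85 FPKM (0.11), Med12 at 1.67 and 1.77 (0.06) and Phf6, not tested, at 0.779 and 0.824. The median change over all tested genes was 0.23, above that of the regulators (0.06). At equal median Xa FPKM the signs of Atrx (-0.21), Med12 (-0.15) and Taf1 (-0.11) turned. Xist on Xi was 18.6 and 18.7 FPKM.

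Other X-linked regulators were taken from lists drawn up with earlier results of these data known. Of 26 genes of histone modification and chromatin remodelling, 18 were tested in the WT table, and Kdm5c and Ercc6l had an Xi share of 10% or more in WT. On Xi, 2 of 18 rose in XistpA and 2 of 18 in XRR KO (Kdm5c and Morf4l2, a subunit of histone acetyltransferase complexes, both times), 1 of 18 in XRRa KO (Morf4l2), and none fell. Over all 270 tested genes 33, 43 and 16 rose on Xi in these comparisons. Kdm5c on Xi was at 0.763, 2.76 and 2.80 FPKM in WT, XistpA and XRR KO. Kdm6a, a histone H3 lysine 27 demethylase, gave no Xi FPKM above 0 in any of the 12 groups although it is known as an escape gene. It was the exception among 9 tested escape genes, of which 8 had an Xi share of 10% or more in WT. On Xa 0 of 18 chromatin genes passed in these 3 comparisons, and their median changes were 0.02, 0.09 and 0.03 beside -0.02, -0.19 and 0.02 over all tested genes. Morf4l2 on Xi also rose in XRRb (2.52 to 15.9 FPKM) and fell in XRRc (12.9 to 4.77 FPKM). With Rad21 dTAG 2 of 18 fell on Xi, Morf4l2 from 5.86 FPKM to a listed 0 and Ercc6l from 1.93 to 0.662 FPKM, where 8 of all 247 tested genes fell.

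Of 27 genes of the transcription machinery and transcription factors, 16 were tested in the WT table. Nkap, Tfe3 and Zfp182 had an Xi share of 10% or more in WT, and on Xi 1 of 16 rose, Cited1, in each of XistpA, XRR KO and XRRa KO. Med14, the backbone subunit of Mediator, was likewise near 0 on Xi. It was at 2.65 FPKM on Xa and 0.00996 FPKM on Xi in WT, and its Xi share was 0.758% at most in the WT table and 2.65% at most elsewhere, with Ctcf dTAG. On Xa, Nkrf fell in XistpA, where it was listed at 0, and the median changes of the list were 0.15, -0.08 and 0.00. With Rad21 dTAG 4 of 13 of this list fell on Xa (Nono, Pqbp1, Cited1 and Uxt, the last listed at 0 with dTAG), of which Nono and Uxt have near-identical copies, and of the chromatin list 2 of 18 (Ercc6l and Usp51, the latter listed at 0 with dTAG). Over all 247 tested genes 37 fell on Xa. On Xi, Cited1 fell from 4.05 to 0.453 FPKM. The median Xa change of each list was -0.39, beside -0.26 over all tested genes. None of the 14 tested members passed on either allele with Ctcf dTAG, while Morf4l2 and Nap1l2 of the chromatin list rose on Xa.

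The genes whose Xa pattern was most like that of a regulator came from 233 genes tested in all 4 tables. Likeness was Pearson's r over 12 merged columns of log2(FPKM + 0.5), centred within each table, and columns of a table share controls and processing. It was highest for Hcfc1 with Acsl4 (0.97), which was 0.65 without the 2 Rad21 columns. Other such pairs were Atrx with Clcn5 (0.94), Suv39h1 with Atp6ap2 (0.87) and Ogt with Bex1 (0.86). For Taf9b no gene came closer than Amot (0.55). Among the regulators themselves, Hcfc1 and Taf1 were the most alike (0.82) and Suv39h1 and Atrx the least (-0.40).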

How the data were processed

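Smart-seq2 RNA libraries of polyadenylated RNA came from 32 XEN samples in 12 groups, per the labels' protocols. Per the submitters' processing notes, mm9, StringTie 2.1.1, HISAT2 2.2.0 and Trim Galore 0.6.4 were used, in roles not given. The step that assigned reads to alleles is not stated in the sources used here. FPKM values for Xa and Xi were deposited by the authors in 4 tables of 24 columns, each merged over a group, so the planned limma test could not be run.

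Levels were compared within a table and shares across tables. Ctcf columns give just the treatment and were placed through the table's name. Named genes were the 8 regulators, the gene most like each, the nearest tested neighbours, Xist, and list members past the size rule. The genes and lists were chosen with earlier results of these data known. RefSeq GRCm38.p6 gave the gene order (999 of 1006 placed). GENCODE M21 transcripts, aligned with minimap2 2.31, counted as near-identical copies at 95% identity over 50% of length, which 0 of the 8 had. Alternatives changed the pseudocount (0.1, 1), the filter (none, 5 FPKM), the scaling (equal median Xa FPKM, or centring on the median Xa change) and the share rule (5%, 20%). Likeness without the Rad21 table was added after seeing the data. Some named genes are not reported here. The calculation of changes was tested on simulated columns with set fold changes on the same scale, which checks the code and not the data. Software was Python 3.11.15 with numpy 2.4.6, matplotlib 3.10.9 and pandas 2.3.3.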

Additional observations from a re-analysis of the deposited data

Results flagged for a closer look

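Taf9b on Xa stood out because its XiKO against XaKO difference was past the size rule in XRRb and, with the other sign, within it in XRRc. The log2 change was -3.05 in XRRb and 0.14 in XRRc, a difference of -3.19. The difference was not tested, since each group is 1 merged column.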

How the results depend on the processing

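No paired analysis was possible because each column merges a whole group and carries no replicate number. For the same reason no replicate could be left out. Of 564 single-gene changes recomputed under the 6 planned settings, 561 kept their side of the size rule, 2 fell below it and 1 passed it. Many of the 561 could not have moved. The filter settings only select genes and leave each change as it was. Neither the pseudocount nor the scaling to equal median Xa FPKM can alter an Xi change between values listed at 0. The count of 561 is therefore not a measure of robustness. No change past the size rule turned its sign, while 23 smaller ones did (0.203 or less in size), 10 at equal median Xa FPKM and 13 when centred on the median Xa change. Both that fell below are Hcfc1 on Xa with Rad21 dTAG, where the count of regulators past the rule went from 1 to 0 at equal median Xa FPKM and when centred on the median Xa change. The filter of 5 FPKM removed Taf9b, which left 0 regulators past the rule on Xa in XRRb. A pseudocount of 0.1 added 1 on Xi with Rad21 dTAG, Ogt. All 36 recomputed counts of regulators past the share rule, under rules of 5% and 20% and the filter of 5 FPKM, were 0 as before. None of these counts could differ, because the highest regulator share was 3.23% and the filter only removes genes. They are therefore no check of the share result. Without the Rad21 table, a choice made after seeing the data, the likeness of Hcfc1 and Acsl4 went from 0.97 to 0.65. The FPKM values give no depth, so no lower limit can be set for the Xi levels listed at 0.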
